A study of Mus musculus with 10 samples.

Results

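The genes described here encode the machinery of oxidative phosphorylation in mouse tongue epithelial cultures. They were chosen by symbol alone, as rows starting with mt-, Nduf, Uqcr, Cox4i, Cox5, Cox6, Cox7, Cox8 or Atp5 together with Sdha, Sdhb, Sdhc and Sdhd. This rule took 104 of the 18586 rows of the expression table, and it left out 1 further row, the pseudogene symbol Ndufb1-ps. Of the 104 members, 15 were mitochondrially encoded (13 mRNAs and the ribosomal RNAs mt-Rnr1 and mt-Rnr2) and 89 were nuclear.

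Bulk poly(A) RNA-seq was performed on 10 libraries of primary tongue epithelial cultures, labelled as 15 days after transgene induction. The paper describes epithelial cells that were put in culture, sorted there for GFP and then grown on in culture. The 6 EY libraries were of the genotype with the oncogenes tetON_E6-E7 and tetON_YAP1S127A beside tetON_H2B-GFP, Krt14-CreERT and LSL-rtTA, 2 from each of the culture lines EY3960, EY4028 and EY4174. The 4 N libraries had tetON_H2B-GFP, Krt14-CreERT and LSL-rtTA with neither oncogene, and all came from the single line N4172. Every culture thus had the tamoxifen-inducible Cre under the basal keratin 14 promoter, the reverse transactivator and the reporter, and all were grown with doxycycline, EGF and cholera toxin. E6 and E7 are papillomavirus oncoproteins that inactivate p53 and the retinoblastoma protein, and YAP1 S127A is a form of the Hippo effector YAP1 that escapes inhibitory phosphorylation. Since N is 1 line, genotype and line cannot be told apart, and libraries of 1 line measure the spread within a culture rather than between animals. Values are TPM, a measure of transcript abundance scaled for transcript length and to a common library total, so that the read depth is unknown and all levels are relative to the rest of the library. Errors of means are SD between libraries, and those of log2 fold changes are SE from limma. In bulk cultures, fewer cells of a type and less RNA per cell cannot be told apart.

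Yap1 lay between 34.7 and 57.1 TPM in the 6 EY libraries and between 17.2 and 20.9 TPM in the 4 N libraries, and whether this row counts transgene reads is not stated. The 5 epithelial markers Krt14, Krt5, Trp63, Epcam and Cdh1 were all present, with a summed level of 3958 to 6979 TPM in EY and 4883 to 5632 TPM in N. Most of the sum was Krt14 and Krt5, which overlapped between the groups, as did Cdh1. Epcam was higher in EY (53.1 to 63.3 TPM) than in N (29.3 to 38.3 TPM). Trp63 was lower in EY (46.0 to 60.5 TPM) than in N (70.8 to 99.9 TPM). Of the 5 skeletal muscle markers, muscle being rich in respiratory chain transcripts, 2 were rows of the table, with sums of 6.24 to 10.7 TPM in EY and 7.57 to 12.6 TPM in N and with Acta1 under 1 TPM throughout. The fibroblast and endothelial markers in the table were under 1 TPM in every library. The immune markers summed to 29.3 to 71.9 TPM in EY and 42.2 to 68.9 TPM in N, nearly all of it Cd68, with Ptprc under 1 TPM throughout. The adipocyte marker Fabp4 reached at most 2.58 TPM.

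Oxidative phosphorylation couples the oxidation of NADH and succinate to ATP synthesis across the inner mitochondrial membrane. Complex I (NADH dehydrogenase) and complex II (succinate dehydrogenase) pass electrons through ubiquinone to complex III and then through cytochrome c to complex IV (cytochrome c oxidase), and the proton gradient drives complex V (ATP synthase). Complexes I, III, IV and V combine mitochondrial and nuclear subunits, whereas complex II is wholly nuclear. The mitochondrial genome is transcribed as long polycistronic RNAs that are cut into ribosomal RNAs, tRNAs and mRNAs, and the nuclear subunits are transcribed from separate genes, many with binding sites for NRF1, GABP, ERR or YY1 in their promoters.

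The 3 mitochondrial cytochrome oxidase mRNAs are shown by the last 24 bases of their GENCODE M21 transcripts (GRCm38), because mt-Co2 and mt-Co3 differed among the EY lines and all 3 were lower in EY3960 than in N. The capitals mark the stop codon, or the single T that becomes a stop codon only when the poly(A) tail is added.
mt-Co1: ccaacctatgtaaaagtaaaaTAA
mt-Co2: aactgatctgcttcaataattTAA
mt-Co3: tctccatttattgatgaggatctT
Of the 13 mitochondrial mRNAs, 3 (mt-Co3, mt-Cytb and mt-Nd4) end in such an incomplete stop codon, and 1, mt-Nd6, lies on the opposite strand from the others. The reading frame of mt-Atp8, 204 bases long, shares 43 bases with mt-Atp6, and that of mt-Nd4l, 297 bases long, shares 7 bases with mt-Nd4. These short overlapping rows had high TPM, and the division of reads between overlapping neighbours is uncertain.

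For the nuclear members, the promoters of Uqcrc1, Ndufa3, Cox8a and Cox7a2l are shown, since these genes passed the test in EY against N and in at least 2 of the single lines. So did Ndufa4l2, for which no window was found. Each window runs from 250 bases before to 50 bases after the RefSeq start (GRCm38.p6), and is written on the strand of the gene, with motif matches in capitals.
Uqcrc1, chr9:108936398-108936697, strand plus: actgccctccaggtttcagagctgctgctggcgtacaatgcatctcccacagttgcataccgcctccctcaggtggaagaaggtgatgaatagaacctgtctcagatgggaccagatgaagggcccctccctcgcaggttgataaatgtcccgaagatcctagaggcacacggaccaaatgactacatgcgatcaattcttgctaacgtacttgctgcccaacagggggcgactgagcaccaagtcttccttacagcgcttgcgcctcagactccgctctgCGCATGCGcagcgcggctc
Ndufa3, chr7:3617123-3617422, strand plus: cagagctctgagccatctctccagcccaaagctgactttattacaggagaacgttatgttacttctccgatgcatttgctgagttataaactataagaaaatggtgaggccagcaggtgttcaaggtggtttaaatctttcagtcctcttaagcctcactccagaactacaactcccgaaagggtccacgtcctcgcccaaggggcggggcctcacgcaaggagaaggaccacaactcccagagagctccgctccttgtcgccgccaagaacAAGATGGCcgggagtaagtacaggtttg
Cox8a, chr19:7217567-7217866, strand minus: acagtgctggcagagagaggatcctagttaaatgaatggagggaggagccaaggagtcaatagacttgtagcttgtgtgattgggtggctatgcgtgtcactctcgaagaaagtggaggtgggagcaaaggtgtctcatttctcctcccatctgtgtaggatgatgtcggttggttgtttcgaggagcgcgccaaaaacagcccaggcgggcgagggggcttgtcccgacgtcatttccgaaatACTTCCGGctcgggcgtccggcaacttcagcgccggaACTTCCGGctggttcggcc
Cox7a2l, chr17:83514284-83514583, strand minus: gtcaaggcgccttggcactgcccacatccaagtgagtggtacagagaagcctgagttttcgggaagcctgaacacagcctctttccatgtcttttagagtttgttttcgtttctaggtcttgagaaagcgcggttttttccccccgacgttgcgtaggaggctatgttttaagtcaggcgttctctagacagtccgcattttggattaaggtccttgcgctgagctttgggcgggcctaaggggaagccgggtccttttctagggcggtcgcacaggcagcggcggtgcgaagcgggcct
The capitals mark an NRF1 core (CGCATGCG) starting at base 32 of the Uqcrc1 transcript, a YY1 motif (AAGATGGC) at base 23 of Ndufa3, and GABP motifs (CCGGAAGT, here on the other strand) 6 bases before the start and at base 32 of Cox8a. The Cox7a2l window held none of the letters searched. Windows of 300 bases were found for 72 of the 89 nuclear members. On either strand, the NRF1 core lay in 11 of the 72 (15.3%) and in 2.07% of the windows of all 27025 genes, or 2.77% of those of 17492 protein-coding genes. The YY1 motif was found in 10 (13.9%) against 3.19% of all windows and 3.57% of protein-coding ones. The GABP motif lay in 5 (6.94%) against 4.31% and 5.69%, and the ERR motif (TCAAGGTCA) in 2 (2.78%) against 0.466% and 0.377%. These are matches of letters, not measured binding sites.

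The mitochondrial rows made up between 14.1% and 20.5% of all TPM in a library, and the nuclear members between 2.41% and 2.83%. In EY3960 the mitochondrial share was 15.2% in both libraries. It was 19.04% and 19.9% in EY4028, 19.6% and 14.1% in EY4174, and 19.3%, 20.5%, 17.8% and 17.6% in N4172. EY3960 therefore lay below the N range in both libraries, EY4028 within it, and the libraries of EY4174 fell on opposite sides of the EY3960 values. The nuclear share was highest in replicate 2 of EY4174, the library with the lowest mitochondrial share.

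The summed TPM of the mitochondrial rows divided by that of the nuclear members does not depend on how a library is scaled. This ratio was 5.80 and 6.09 in EY3960, 7.76 and 8.24 in EY4028, 7.95 and 4.99 in EY4174, and 7.65, 8.43, 7.02 and 6.87 in N4172. The log2 difference from the N mean was -0.16 for EY as a whole, -0.33 for EY3960, 0.10 for EY4028 and -0.25 for EY4174. The EY and N ranges overlapped, and the EY4174 value turned on the library used: it was -0.58 from replicate 2 alone and 0.091 from replicate 1 alone. The short mt-Atp8 row alone held between 3.01% and 7.65% of all TPM, and without it the EY4174 difference was -0.10 and that of EY3960 was -0.37. No test was run on these sums.

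**Figure D1:**
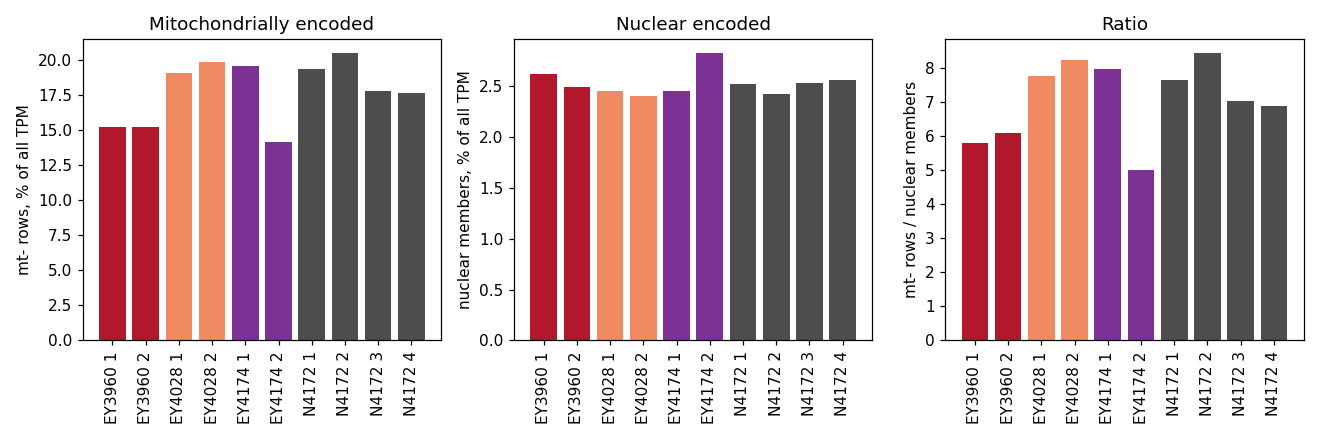
Share of all TPM held by the 15 mitochondrially encoded rows (left) and the 89 nuclear members (middle), in percent, and the ratio of the summed TPM (right), with 1 bar per library coloured by line. Both EY3960 libraries (ratios 5.80 and 6.09) and replicate 2 of EY4174 (4.99) lie below the lowest N library (6.87), while the nuclear shares stay between 2.41% and 2.83%.

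Split by complex, the ratio of EY3960 departed most from N for complex IV, by -0.64 on the log2 scale, beside -0.33 for complex I, -0.17 for complex V and -0.09 for complex III. The summed mt-Co1, mt-Co2 and mt-Co3 over the nuclear complex IV members was 4.50 and 4.54 in EY3960, 6.89 and 7.49 in EY4028, 8.25 and 6.49 in EY4174, and 6.75, 7.01, 6.86 and 7.67 in N4172. Both EY3960 libraries lay below every other library. For complex III, the ratio of mt-Cytb to the nuclear subunits in EY4028 was 3.57 and 3.75, above the 2.52 to 3.04 of the N libraries. For complex V, mt-Atp6 over the nuclear subunits was 2.34 and 2.88 in EY4028, above the 1.97 to 2.20 of N. For complex I, the ratios of EY3960 (6.07 and 6.55) lay below those of N (7.30 to 8.80), and those of EY4028 (8.07 and 8.40) lay within them.

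Among single mitochondrial rows, EY against N gave 1 call of 15 (6.67%, higher) at a limma adjusted p under 0.01, beside 6.84% of all genes tested that were called higher. The row was mt-Rnr2, the large mitochondrial ribosomal RNA. Its level was 755 and 836 TPM in EY3960, 719 and 755 TPM in EY4028, 762 and 562 TPM in EY4174, and 370.2, 410.3, 402 and 549 TPM in N4172. Every EY library was above every N library, although replicate 2 of EY4174 and replicate 4 of N4172 were close. The mean was 732 ± 91.2 (SD, n = 6) in EY and 433 ± 79.3 (SD, n = 4) in N, a log2 fold change of 0.76 ± 0.12 on log2(TPM + 1) with a limma adjusted p of 0.00117. Without replicate 4 of N4172 the log2 fold change was 0.88, and with line as a random block the adjusted p was 0.0567. By line, mt-Rnr2 rose in EY3960 (0.89, limma adjusted p = 0.00202) and EY4028 (0.78, 0.00465), and in EY4174 its difference of 0.61 had an adjusted p of 0.0166. The EY3960 call was lost when either of its libraries was left out (adjusted p of up to 0.0309), and the EY4028 call in 5 of 16 alternative fits.

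The small ribosomal RNA mt-Rnr1, which lies next to mt-Rnr2 in the same primary transcript, did not pass. It was measured at 655 and 630.2 TPM in EY3960, 717 and 715 TPM in EY4028, 965 and 840.0 TPM in EY4174, and 770.1, 812, 829.8 and 653 TPM in N4172, with the EY libraries on both sides of the N range and a log2 fold change of -0.03 ± 0.12. The ratio of mt-Rnr2 to mt-Rnr1 was 1 ± 0.239 (SD, n = 6) in EY and 0.578 ± 0.175 (SD, n = 4) in N, but the ranges overlapped (0.67 to 1.33 and 0.48 to 0.84). Per 1000 TPM of mitochondrial mRNA, mt-Rnr2 was 4.36 ± 0.739 (SD, n = 6) in EY and 2.34 ± 0.549 (SD, n = 4) in N, and the lowest EY library (3.81) lay above the highest N library (3.14). Both ribosomal RNAs were below each of the 13 mRNAs in every library, and in poly(A)-selected libraries their TPM covers only what the selection kept. Reads from nuclear copies of mitochondrial DNA, if present, could be counted in these rows.

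None of the 13 mitochondrial mRNAs passed in EY against N (limma, 1 or 7.69% at an unadjusted p under 0.05, beside 37.5% of all genes). Their log2 fold changes ran from -0.35 for mt-Co1 to 0.18 for mt-Nd3, with a median of -0.15. The median over all 15 rows was -0.12, beside 0.04 for the nuclear members and 0.03 for all 11630 genes tested.

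EY3960 was the line with called mitochondrial mRNAs, and these were the 3 mitochondrial oxidase subunits. They made up 23.1% of the 13 mRNAs, beside 7.06% of all genes tested that were called lower in this line. Of all 15 mitochondrial rows, 20% were called lower and 6.67% higher, the latter beside 9.94% of all genes. Since the mRNAs are cut from shared polycistronic RNAs, the 3 calls need not be separate events. mt-Co2, which carries the copper center that receives electrons from cytochrome c, was measured at 12312 and 11071 TPM in EY3960, 16972 and 18675 TPM in EY4028, 18933 and 18673 TPM in EY4174, and 17604, 15903, 18144 and 19522 TPM in N4172. Both EY3960 libraries lay below all 8 others, and the log2 fold change against N4172 was -0.60 ± 0.08 with a limma adjusted p of 3.10e-04. mt-Co3, a structural subunit of the catalytic core, was 9832 and 9023 TPM in EY3960, 12512 and 13213 TPM in EY4028, 15186 and 13868 TPM in EY4174, and 13039, 14076, 12908 and 14864 TPM in N4172. Again EY3960 lay below all other libraries, and the log2 fold change was -0.54 ± 0.07 (limma adjusted p = 3.16e-04). mt-Co1, which holds the heme and copper site where oxygen is reduced, was 12169 and 11800.2 TPM in EY3960, 15894 and 16096 TPM in EY4028, 17210.0 and 13708 TPM in EY4174, and 17092, 17799, 16818 and 21512 TPM in N4172. It fell by 0.60 in EY3960 (limma adjusted p = 0.00195), a call lost when either EY3960 library was left out.

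The fall of mt-Co2 and mt-Co3 was tested directly among the EY lines. The F test in the model with 4 line means gave an adjusted p of 0.00101 for mt-Co2 and 0.0014 for mt-Co3, and the lines were 0.69 and 0.62 apart on the log2 scale. For mt-Co1 the same F test gave an adjusted p of 0.0674. In EY4028 and EY4174, mt-Co2 differed from N by 0.00 and 0.08 with SE of 0.08.

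The other mitochondrial rows did not pass in any line. Among the complex I subunits, the log2 fold changes of mt-Nd1, mt-Nd2 and mt-Nd3 in EY3960 were -0.17, -0.11 and -0.02, and those of mt-Nd4, mt-Nd4l, mt-Nd5 and mt-Nd6 were -0.33, -0.38, -0.47 and -0.38. All 13 mRNAs had a negative value in EY3960, against 4 of 13 in EY4028 and 8 of 13 in EY4174. mt-Cytb, the mitochondrial subunit of complex III, was at 0.33 in EY4028 (limma adjusted p = 0.0226), and mt-Atp6, the proton channel subunit of complex V, at 0.33 in EY4174 (limma adjusted p = 0.0301). The rows mt-Atp8 and mt-Nd4l were lowest in replicate 2 of EY4174, at 30075 and 7453 TPM, beside 56839.5 and 13692 TPM in replicate 1 of the same line. In that library the ratio of mt-Atp8 to mt-Atp6 was 1.63, the lowest of the 10 libraries, against 2.59 in replicate 1 and 3.08 to 5.07 in N.

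**Figure D2:**
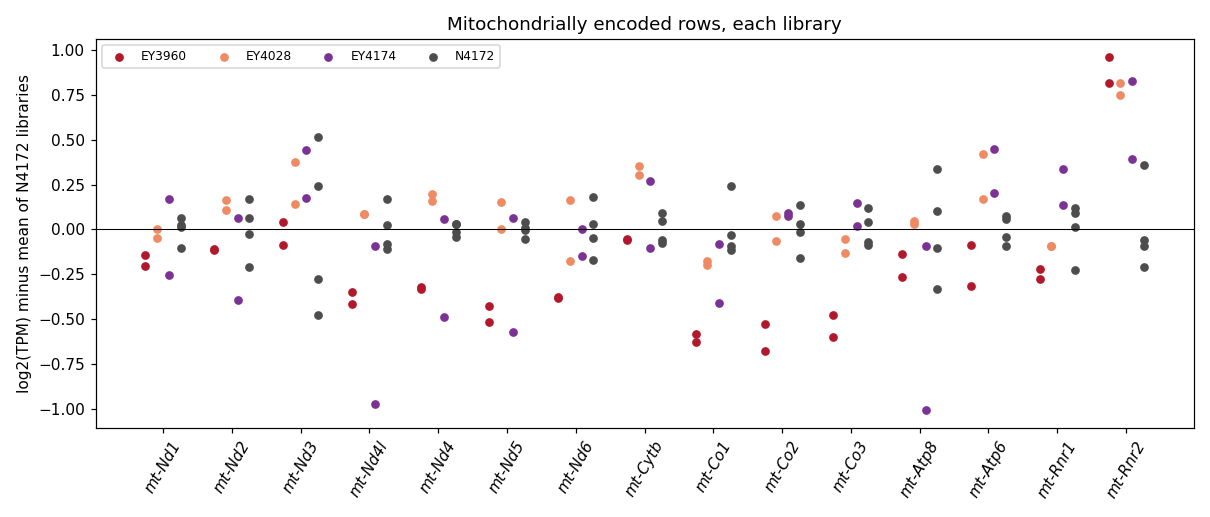
Level of each mitochondrially encoded row in each library, as log2(TPM) minus the mean of the 4 N4172 libraries, with 1 point per library coloured by line. The EY libraries lie above the N libraries for mt-Rnr2, the EY3960 libraries lie below all others for mt-Co2 and mt-Co3, and the libraries of EY4174 are far apart for mt-Atp8 and mt-Nd4l.

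Of the 89 nuclear members, 87 passed the filter of at least 1 TPM in at least 4 libraries. The exceptions were Cox6b2 and Cox7a1, isoforms known from testis and from heart and muscle, which reached at most 0.72 and 1.099 TPM. In EY against N, 8 of the 87 had a limma adjusted p under 0.01. The 4 higher members (4.60%) stand beside 6.84% of all genes tested, and the 4 lower (4.60%) beside 5.00%. The changes were small: 83 of 87 log2 fold changes lay within 0.5 of 0, with a median SE of 0.09. Only Ndufa4l2 also passed the study's threshold of an absolute log2 fold change over 1, which 3.55% of all genes passed. This gene, counted among the 4 lower, met the filter through the N libraries alone, so that its direction was fixed by the filter. After TPM were rescaled without the mitochondrial rows, 3 members were higher and 5 lower, and under median ratio scaling 1 was higher and 3 were lower.

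The 4 higher members were Uqcrc1, Ndufa3, Ndufb6 and Ndufs5. Uqcrc1, a core protein of complex III, was measured at 141 and 161 TPM in EY3960, 143 and 141 TPM in EY4028, 156 and 168 TPM in EY4174, and 108, 95.3, 112 and 106 TPM in N4172. The groups did not overlap, and the means were 152 ± 11.7 (SD, n = 6) in EY and 105 ± 7.12 (SD, n = 4) in N. The log2 fold change was 0.52 ± 0.08 with a limma adjusted p of 5.77e-04, and by line it was 0.52 in EY3960, 0.43 in EY4028 and 0.62 in EY4174, each past adjusted p. The call was kept with any single library or EY line left out. With line as a random block its adjusted p was 0.0285, and in that fit no nuclear member passed 0.01.

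Ndufa3, Ndufb6 and Ndufs5 are accessory subunits of complex I. Ndufa3 was 369 and 285 TPM in EY3960, 309.8 and 345 TPM in EY4028, 276 and 316 TPM in EY4174, and 238, 219, 235 and 235 TPM in N4172, with a log2 fold change of 0.44 ± 0.09 (limma adjusted p = 0.00322). Ndufb6 was 314 and 309.9 TPM in EY3960, 299 and 285 TPM in EY4028, 289 and 309.7 TPM in EY4174, and 251, 252, 259.8 and 241 TPM in N4172, at 0.26 ± 0.06 (limma adjusted p = 0.00684). Ndufs5 was 219.9 and 205 TPM in EY3960, 207 and 209 TPM in EY4028, 195 and 212 TPM in EY4174, and 177, 169, 176 and 176 TPM in N4172, at 0.25 ± 0.06 (limma adjusted p = 0.00729). For each of the 3 all EY libraries were above all N libraries. The Ndufa3 call was lost in 7 of 21 alternative fits, and those of Ndufb6 and Ndufs5 in 14 of 21 each.

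The 4 lower members were Cox7a2l, Cox8a, Ndufa4l2 and Ndufb4c. Cox7a2l, also called SCAF1, links complexes III and IV in respiratory supercomplexes. It was 191 and 173 TPM in EY3960, 150.1 and 143 TPM in EY4028, 163 and 188 TPM in EY4174, and 238, 243, 256 and 267 TPM in N4172, and all EY libraries lay below all N libraries. The means were 168 ± 19.6 (SD, n = 6) in EY and 251 ± 13.3 (SD, n = 4) in N, and the log2 fold change was -0.58 ± 0.09 with a limma adjusted p of 8.52e-04. It passed in every line, at -0.46 in EY3960, -0.77 in EY4028 and -0.51 in EY4174, and its adjusted p was 0.025 with line as a random block.

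Cox8a, a small structural subunit of complex IV, was 1061 and 952 TPM in EY3960, 885 and 878 TPM in EY4028, 832 and 915 TPM in EY4174, and 1219, 1175, 1203 and 1173 TPM in N4172. The groups did not overlap, and the log2 fold change was -0.38 ± 0.07 (limma adjusted p = 0.00301). It passed in EY4028 (-0.44) and EY4174 (-0.45), and in EY3960 it was -0.25 with an adjusted p of 0.0193. Ndufb4c, a close relative of the complex I subunit gene Ndufb4 whose reads may be divided between both, was 220.3 and 236 TPM in EY3960, 254 and 244 TPM in EY4028, 251 and 243 TPM in EY4174, and 293, 281, 303 and 285 TPM in N4172, at -0.27 ± 0.06 (limma adjusted p = 0.00821). The Ndufb4c call was lost in 14 of 21 alternative fits and that of Cox8a in 7 of 21. Ndufb4 itself was at -0.10 ± 0.08.

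Ndufa4l2 is a hypoxia-inducible relative of Ndufa4, which despite its name is a subunit of complex IV. It was low throughout, at 0.277 and 0.431 TPM in EY3960, 0.33 and 0 TPM in EY4028, 0.613 and 0.861 TPM in EY4174, and 2.04, 2.57, 2.33 and 5.14 TPM in N4172. All 6 EY libraries were under 1 TPM and all 4 N libraries above 2 TPM, so that it met the filter through the N libraries alone and had to differ. The log2 fold change was -1.47 ± 0.22 with a limma adjusted p of 7.39e-04, and at a pseudocount of 0.1 TPM it was -2.78, a size that depends on the pseudocount. Replicate 4 of N4172, at 5.14 TPM, stood apart from the other N libraries. Ndufa4 was 1253 and 1142 TPM in EY3960, 1027 and 979 TPM in EY4028, 1116 and 1202 TPM in EY4174, and 1234, 1164, 1202 and 1274 TPM in N4172, with overlapping groups.

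**Figure D3:**
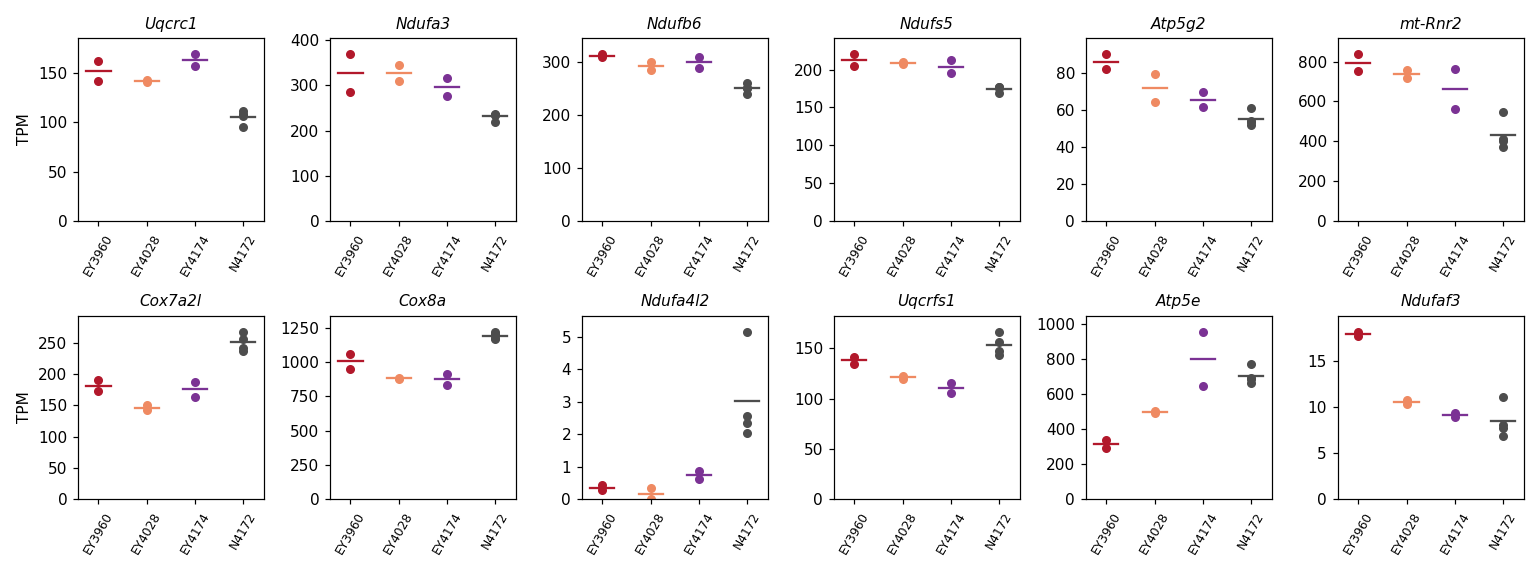
TPM of 12 members in each library, with axes from 0, 1 point per library and a bar at the mean of each line. Uqcrc1, Ndufa3, Ndufb6, Ndufs5, Atp5g2 and mt-Rnr2 are higher in all EY libraries than in all N libraries, and Cox7a2l, Cox8a, Ndufa4l2 and Uqcrfs1 are lower. The direction of Ndufa4l2 was fixed by the filter. Atp5e differs between the EY lines, and Ndufaf3 is highest in EY3960 (F test adjusted p = 0.0104 among the EY lines).

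All 6 EY libraries lay above all 4 N libraries for 9 nuclear members (10.3%) beside 11.3% of all genes tested, and below for 6 (6.90%) beside 9.10%. The lower ones include Ndufa4l2, which met the filter through the N libraries alone, so that its place was fixed in advance. Among the mitochondrial rows this held for mt-Rnr2, higher. The nuclear members beyond the called ones included Atp5g2, Atp5k, Ndufa5 and Sdhb, higher, and Cox7c and Uqcrfs1, lower. These shares were no larger than those of all genes.

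By complex, EY against N called 3 higher (8.11%) and 1 lower of 37 in complex I, and 0 of 4 in complex II. Complex III had 1 higher of 8 (12.5%), complex IV 2 lower of 12 tested (16.7%) and complex V 0 of 16. Cox7a2l, lower, was counted apart. These shares stand beside 6.84% of all genes tested that were called higher and 5.00% called lower. Of the 2 in complex IV, 1 was Ndufa4l2, whose direction was fixed by the filter. At an unadjusted p under 0.05, limma gave 8 in complex I (21.6%), 2 in complex II (50%) and 3 in complex III (37.5%). It gave 4 in complex IV (33.3%) and 2 in complex V (12.5%), beside 37.5% of all genes tested. The summed TPM of complex I was 6751 ± 415 (SD, n = 6) in EY and 6411 ± 117 (SD, n = 4) in N, and that of complex V 7902 ± 647 (SD, n = 6) in EY and 7703 ± 219.6 (SD, n = 4) in N. None of the 8 Ndufaf assembly factors passed, with a median log2 fold change of 0.14 (limma, 3 at an unadjusted p under 0.05), nor did Atp5s, at -0.19 ± 0.20.

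The most abundant nuclear member of each complex did not pass in EY against N. Ndufa7 of complex I was 416 ± 26.9 (SD, n = 6) in EY and 413 ± 12.1 (SD, n = 4) in N TPM. Sdhd, a membrane anchor of complex II, was 173 ± 12.2 (SD, n = 6) in EY and 200.4 ± 16.1 (SD, n = 4) in N TPM, with a log2 fold change of -0.21 ± 0.08. Uqcrq of complex III was 893 ± 175 (SD, n = 6) in EY and 883 ± 19.5 (SD, n = 4) in N TPM, and Atp5b, the catalytic beta subunit of complex V, was 1768 ± 235 (SD, n = 6) in EY and 1655 ± 146 (SD, n = 4) in N TPM. On the log2 scale Uqcrq differed by -0.00 ± 0.12, Atp5b by 0.09 ± 0.11 and Ndufa7 by 0.01 ± 0.07.

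Several subunits exist as isoform pairs. Cox4i1, the common form of the largest nuclear subunit of complex IV, was 788 ± 62.9 (SD, n = 6) in EY and 672 ± 46.8 (SD, n = 4) in N TPM, Cox6a1 767 ± 105 (SD, n = 6) in EY and 696 ± 58.97 (SD, n = 4) in N TPM, Cox6b1 609 ± 70.9 (SD, n = 6) in EY and 552 ± 17.02 (SD, n = 4) in N TPM and Cox7a2 358 ± 34.1 (SD, n = 6) in EY and 348 ± 8.56 (SD, n = 4) in N TPM. None of these 4 passed in EY against N, and the partners Cox4i2, Cox6a2 and Cox8b had no row in the expression table. Atp5g1, Atp5g2 and Atp5g3 encode the same mature ring subunit of complex V behind different import signals. Atp5g3 was 686 ± 43.5 (SD, n = 6) in EY and 697 ± 32.7 (SD, n = 4) in N TPM and Atp5g1 556 ± 66.00 (SD, n = 6) in EY and 581 ± 38.6 (SD, n = 4) in N TPM. Atp5g2 was the least abundant, at 89.8 and 82.1 TPM in EY3960, 64.2 and 79.00 TPM in EY4028, 61.4 and 69.5 TPM in EY4174, and 53.2, 51.9, 60.8 and 54.2 TPM in N4172. All EY libraries were above all N libraries, the log2 fold change was 0.42 ± 0.11 with a limma adjusted p of 0.0164, and Atp5g2 rose in EY3960 (0.63, limma adjusted p = 0.0011). Its share of the summed Atp5g TPM was 5.69% ± 1.07 (SD, n = 6) in EY and 4.13% ± 0.18 (SD, n = 4) in N.

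Each EY line was then set against the 4 N libraries in 1 model with 4 line means. These comparisons share the N libraries, so that a gene low or high in N4172 moves all 3. In EY3960, 8 of 87 nuclear members were higher (9.20%, beside 9.94% of all genes) and 4 lower (4.60%, beside 7.06%). Of these, 3 also passed the fold threshold, which 7.04% of all genes passed: Ndufaf3, Atp5e and Ndufa4l2. In EY4028, 3 were higher (3.45%, beside 10.9%) and 4 lower (4.60%, beside 5.83%), and the fold threshold left Ndufa4l2, beside 5.74% of all genes. In EY4174, 2 were higher (2.30%, beside 7.32%) and 5 lower (5.75%, beside 8.26%), and again Ndufa4l2 passed the fold threshold, beside 4.95% of all genes. The EY4174 call of Ndufa4l2 was lost in 10 of 12 alternative fits. For every line its direction was fixed by the filter, which it met through the N libraries alone.

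The direction of these counts moved with the scaling. Under median ratio scaling the split was 3 higher and 4 lower in EY3960, 0 and 6 in EY4028, and 2 and 3 in EY4174, and without the mitochondrial rows it was 6 and 6 in EY3960. In EY4028 the median of all genes was 0.09 as deposited and -0.01 under median ratio scaling, and the nuclear median moved from -0.01 to -0.12, so that it lay below the median of all genes on both scales. The nuclear median was 0.07 in EY3960, beside 0.01 for all genes, and 0.08 in EY4174, beside -0.01.

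**Figure D4:**
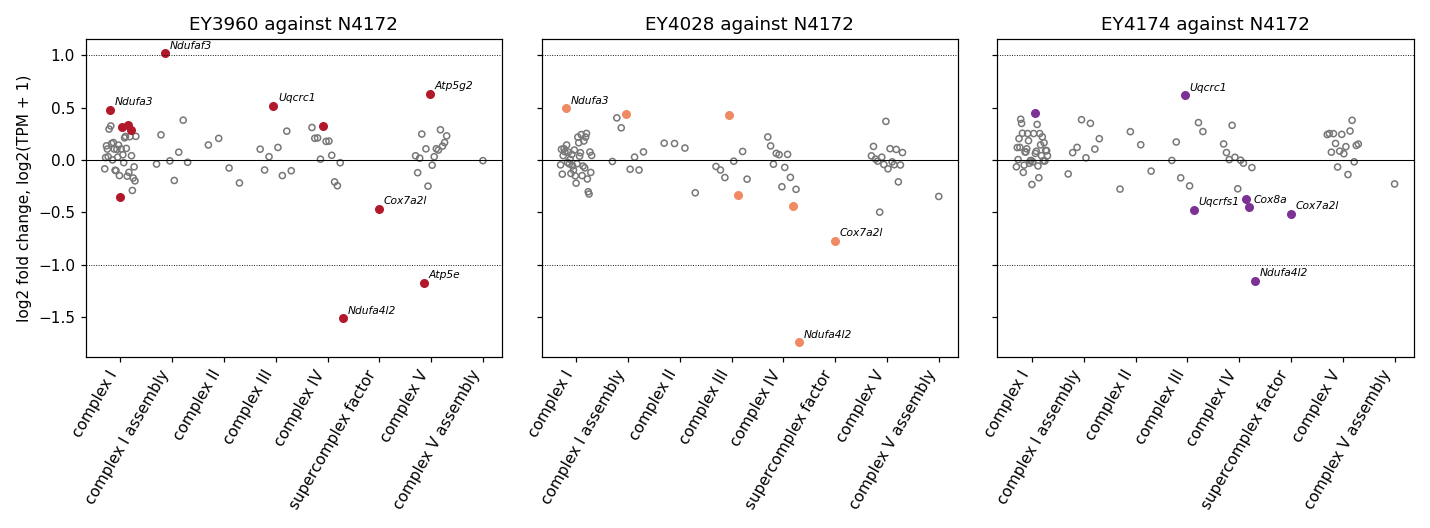
Log2 fold change of the 87 tested nuclear members against N4172 on log2(TPM + 1), by complex and with 1 panel per EY line. Filled points had a limma adjusted p under 0.01 (12, 7 and 7 members), open points did not, and dotted lines mark the fold threshold of 1. Most members lie within 0.5 of 0 in each line, and Ndufa4l2, Atp5e and Ndufaf3 reach the threshold in EY3960.

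Beside Ndufa4l2, Ndufaf3 and Atp5e passed the fold threshold in EY3960. Ndufaf3, an assembly factor that works with Ndufaf4 early in the making of complex I, was 18.1 and 17.6 TPM in EY3960, 10.3 and 10.8 TPM in EY4028, 8.94 and 9.29 TPM in EY4174, and 7.72, 6.88, 8.07 and 11.01 TPM in N4172. Both EY3960 libraries were above all others, with a log2 fold change of 1.02 ± 0.15 (limma adjusted p = 5.48e-04), whereas in EY4028 and EY4174 it was 0.31 and 0.12. Its partner Ndufaf4 was called in EY4028, at 0.44 ± 0.09 (limma adjusted p = 0.00503), and was at -0.01 in EY3960. Among the EY lines the F test gave an adjusted p of 0.0104 for Ndufaf3.

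Atp5e, the epsilon subunit of the central stalk of ATP synthase, was 335 and 289 TPM in EY3960, 504 and 489 TPM in EY4028, 644 and 951 TPM in EY4174, and 688, 687, 664 and 772 TPM in N4172. EY3960 was lowest and EY4028 next, both below every N library, and the EY4174 libraries lay on both sides of the N range. The log2 fold change was -1.17 ± 0.13 in EY3960 (limma adjusted p = 9.84e-05), -0.50 ± 0.13 in EY4028 (0.0182) and 0.16 ± 0.13 in EY4174 (0.405). Pooled over lines, Atp5e was at -0.50 with a limma adjusted p of 0.241. Small transcripts of this kind can have processed copies elsewhere in the genome, with which their reads may be divided.

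The remaining called members of EY3960 included Cox6b1 (0.32), an oxidase subunit on the intermembrane side, Ndufb6 (0.31), Ndufs5 (0.28), Ndufa3 (0.48), Uqcrc1, Atp5g2, and lower Ndufb4c (-0.35) and Cox7a2l. In EY3960, where mt-Co1, mt-Co2 and mt-Co3 fell, Cox6b1 was the 1 nuclear member of complex IV called higher, of 12 tested. Ndufa4l2 was the 1 called lower. Of the 12, 8 had a positive log2 fold change, while Cox8a and Cox7c were at -0.25 and -0.21. The Cox6b1 call was lost in 10 of 17 alternative fits. In EY4028 and EY4174, Uqcrfs1, the Rieske iron-sulfur protein of complex III, fell. It was 142 and 135 TPM in EY3960, 123 and 119 TPM in EY4028, 105 and 115 TPM in EY4174, and 147, 143, 156 and 166 TPM in N4172, with log2 fold changes of -0.34 (limma adjusted p = 0.00946) and -0.47 (0.00154), while Uqcrc1 of the same complex rose in both lines. The EY4028 call of Uqcrfs1 was lost in 12 of 17 alternative fits. In EY4174, Cox7c, a small oxidase subunit, fell (-0.37, limma adjusted p = 0.00591), and Ndufb7 of complex I rose (0.45, limma adjusted p = 0.0084). These calls were lost in 9 and 12 of 17 alternative fits. Without replicate 2 of EY4174, Ndufb7 was at 0.24 with an adjusted p of 0.0908.

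Among the EY lines, the F test called 3 of 87 nuclear members (3.45%) and 2 of 15 mitochondrial rows (13.3%), beside 8.55% of all genes. The nuclear members were Atp5e (adjusted p = 6.12e-04), Cox6c (0.0039) and Sdha (0.00683). Cox6c, a small subunit of complex IV, was 928 and 868 TPM in EY3960, 678 and 651 TPM in EY4028, 619 and 695 TPM in EY4174, and 813, 821, 770.1 and 771 TPM in N4172, highest in both EY3960 libraries and lowest in EY4028 and EY4174. Sdha, the flavoprotein of complex II that oxidizes succinate, was 81.8 and 84.97 TPM in EY3960, 84.8 and 83.98 TPM in EY4028, 63.5 and 60.5 TPM in EY4174, and 78.8, 70.1, 77.7 and 75.2 TPM in N4172, and both EY4174 libraries lay below all others. Its complex II partners Sdhb, Sdhc and Sdhd gave F test adjusted p of 0.644, 0.33 and 0.281. Under median ratio scaling the F test called 1 nuclear member.

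The other genes of the pathway were read from lists of factors that make, assemble, feed or regulate the complexes. Of 28 tested genes for transcription, replication and turnover of mitochondrial DNA and RNA, 0 passed in EY against N. At an unadjusted p under 0.05, limma gave 10 (35.7%), beside 37.5% of all genes tested. Mterf1b was at 0.57 ± 0.14 and Mterf2 at -0.65 ± 0.19. In EY4174, 4 of these were lower (14.3%, beside 8.26% of all genes), and Mterf2, a mitochondrial termination factor family member, passed the fold threshold at -1.10 ± 0.17 (limma adjusted p = 7.92e-04). Its level was 2.03 and 1.65 TPM in EY3960, 1.90 and 1.55 TPM in EY4028, 0.933 and 0.558 TPM in EY4174, and 3.23, 3.10, 2.19 and 2.49 TPM in N4172, low in every library. The 78 mitochondrial ribosomal protein genes gave 3 higher and 2 lower, with a median of 0.05. Mrpl4 rose (0.61 ± 0.08, limma adjusted p = 2.19e-04) and Mrps30 fell (-0.56 ± 0.09, 9.79e-04).

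Of 34 assembly factors of complexes II to V, 4 were higher (11.8%, beside 6.84% of all genes) and 0 lower (beside 5.00%) in EY against N. EY3960 had 3 higher (8.82%, beside 9.94%) and 0 lower. EY4028 had 3 higher (8.82%, beside 10.9%) and 3 lower (8.82%, beside 5.83%). EY4174 had 2 higher (5.88%, beside 7.32%) and 1 lower (2.94%, beside 8.26%). Uqcc2, which is needed to make cytochrome b of complex III, was 433 and 406 TPM in EY3960, 459 and 419 TPM in EY4028, 495 and 581 TPM in EY4174, and 309, 309, 302 and 339 TPM in N4172, with no overlap of the groups. Its log2 fold change was 0.55 ± 0.10 (limma adjusted p = 0.00181), and it rose in each line. Coa3, which binds newly made mt-Co1 protein, was 181 and 185 TPM in EY3960, 166 and 156 TPM in EY4028, 163 and 176 TPM in EY4174, and 99.04, 92.9, 105 and 151 TPM in N4172, at 0.63 ± 0.12 (limma adjusted p = 0.00299). Of the 7 further complex I assembly factors 0 passed (limma, 1 or 14.3% at an unadjusted p under 0.05, beside 37.5% of all genes). Nubpl and Foxred1 were at -0.23 ± 0.09 and -0.12 ± 0.10.

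Among 22 tested genes of the tricarboxylic acid cycle and pyruvate entry, 1 passed. Pdk1, a kinase that inhibits pyruvate dehydrogenase, was 41.4 and 44.4 TPM in EY3960, 30.9 and 30.3 TPM in EY4028, 41.4 and 37.5 TPM in EY4174, and 59.2, 58.8, 61.5 and 58.2 TPM in N4172, lower in all EY than in all N libraries. It fell by 0.66 (SE 0.11, limma adjusted p = 0.00142), and passed in each line. None of 18 genes for electron carriers and ubiquinone synthesis passed in EY against N. At an unadjusted p under 0.05, limma gave 6 (33.3%), beside 37.5% of all genes tested. Coq2, which attaches the ubiquinone tail, fell in EY3960 (-0.63, limma adjusted p = 2.33e-04) and EY4028 (-0.69, 1.47e-04) and was at -0.16 in EY4174, and Coq4 was at 0.44 ± 0.11 in EY against N.

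Of 25 genes for protein import and the outer membrane, 3 were higher and 0 lower. Timm17b of the inner membrane translocase rose (0.49 ± 0.08, limma adjusted p = 8.93e-04), as did Tomm6 of the outer membrane translocase (0.61 ± 0.10, 0.00129). Of 10 tested transcriptional regulators of these genes, 1 passed. Myc was 29.4 and 32.1 TPM in EY3960, 37.5 and 38.1 TPM in EY4028, 41.5 and 35.2 TPM in EY4174, and 29.8, 23.1, 23.95 and 22.03 TPM in N4172, with a log2 fold change of 0.51 ± 0.11 (limma adjusted p = 0.00711), and replicate 1 of EY3960 lay within the N range. The Myc call was lost in 14 of 21 alternative fits and that of Coa3 in 6 of 21. Gabpb1, a subunit of GABP, was at 0.25 ± 0.09. The EY against N counts of these lists stand beside the same 6.84% and 5.00% of all genes. With line as a random block, none of the named EY against N calls in these lists was kept, with limma adjusted p of 0.015 for Mrpl4, 0.0234 for Pdk1, 0.0365 for Mrps30, 0.0405 for Uqcc2, 0.0468 for Timm17b, 0.0684 for Tomm6, 0.112 for Coa3 and 0.128 for Myc.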

How the data were processed

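Poly(A) RNA of 10 cultures was sequenced as read pairs, and the authors deposited 1 table of TPM per gene symbol. The submitters' processing notes name STAR 2.7.9, SAMtools 1.7, HTSeq 0.13.5, DESeq2 1.34.0 and the build GRCm39. Which step made the TPM is not given in the sources used here, and the paper's methods also describe a transcript quantification for gene set enrichment. Columns summed to 998358 to 998951 TPM, read depth is unknown, and 20 symbols had been turned into dates.

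The authors tested counts with DESeq2. Here limma 3.58.1 (R 4.3.3, trend and robust options) was run on log2(TPM + 1), a scale that understates the change of low genes. It took the 11630 rows that reached 1 TPM or more in 4 or more libraries. P-values were Benjamini-Hochberg adjusted over all of them and called under 0.01, or with an absolute log2 fold change over 1 as well, the study's thresholds. The 6 EY libraries were set against the 4 N libraries, and each line was tested in a model with 4 line means. Every adjusted p is from limma. The fits were also run on simulated data with independent noise of the size seen within lines and a set EY change in some genes. No differences between lines were simulated, so that run cannot show false calls from line differences. Sums, ratios and marker levels were not tested.

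The members and gene lists were chosen with earlier results of these data known. Named were all mitochondrial rows, nuclear members past both thresholds, the 3 highest and 3 lowest called in each comparison with N, the most abundant of each complex, the 3 with the smallest p among EY lines and isoform pairs, and from each list genes past both thresholds and the 2 with the smallest adjusted p. Remaining called members, the members whose groups did not overlap, the other members of complex II, Ndufb4, Ndufaf4, Atp5s and the abundant Cox forms were named after their values were seen. An NRF1 core of 8 bases replaced a longer motif planned at first. Some genes that these rules name are not reported here.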

Additional observations from a re-analysis of the deposited data

Results flagged for a closer look

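In 92 groups of libraries (42 named members and 4 summed quantities, each within EY and within N), 5 held a library far from the others by Dixon's criterion, and chance gives about 4.6. Replicate 2 of EY4174 stood apart in 3 of them, with Atp5g3 at 770.5 TPM against 651 to 685 TPM in the other EY libraries, Ndufb7 at 266 TPM against 174 to 199 TPM, and Uqcrq at 1231 TPM against 748 to 923 TPM. In N, replicate 2 had Ndufa3 at 219 TPM against 235 to 238 TPM, and replicate 4 had Ndufa4l2 at 5.14 TPM against 2.04 to 2.57 TPM.

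The EY lines differed from one another past the adjusted p of the F test in 5 members. On the log2 scale, the largest and the smallest line were 1.33 apart for Atp5e, 0.69 for mt-Co2, 0.62 for mt-Co3, 0.45 for Cox6c and 0.44 for Sdha.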

How the results depend on the processing

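No result changed sign in a called value. Calls of nuclear members in EY against N (8) fell to 4 under median ratio scaling, 5 without limma's trend and robust options, 3 without line EY4028 and 0 with line as a random block (11 at an unadjusted p under 0.05), where the mitochondrial count also fell from 1 to 0 (1 at an unadjusted p under 0.05). Median ratio scaling gave 7 nuclear calls in EY3960 (12 as reported), 1 mitochondrial call in EY4174 (0) and 1 nuclear call among the EY lines (3). Without the trend and robust options the nuclear calls were 6 in EY3960, 4 in EY4028 (7) and 4 in EY4174 (7), and among the EY lines 1 nuclear and 1 mitochondrial row (2) were called. The cause was not tested. TPM without the mitochondrial rows gave 8, 12, 9 and 9 nuclear calls.

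With 1 library left out, nuclear calls ranged from 2 to 8 in EY against N (2 without N replicate 1, 2 or 3), 4 to 18 in EY3960 (4 without either of its libraries), 1 to 12 in EY4028 (12 without N replicate 4, 1 without its own replicate 2), 4 to 18 in EY4174 (18 without N replicate 4) and 1 to 7 among the EY lines (7 without N replicate 4). Mitochondrial calls ranged from 1 to 1, 2 to 7, 0 to 2, 0 to 3 and 0 to 6 in the same order. A line left with 1 library is assumed to vary like the others. The mitochondrial to nuclear log2 ratio ranged from -0.22 to -0.07 in EY against N, -0.37 to -0.27 in EY3960, 0.06 to 0.16 in EY4028 and -0.58 (without replicate 1) to 0.091 (without replicate 2) in EY4174. The ratio without mt-Atp8 was added after its share was seen.

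Taking the labels' sample number as replicate block, EY against N called 0 nuclear members (15 at an unadjusted p under 0.05) and 1 mitochondrial row, EY3960 called 7 nuclear members, and EY4174 called 1 mitochondrial row. Deviations of same-numbered libraries from their line means correlated between -0.15 and 0.10, and those of different-numbered libraries between -0.18 and 0.18. With 2 libraries per EY line the deviations mirror each other, so few of these values are independent and they cannot decide whether the numbers pair the libraries. With unknown depth, low rows such as Ndufa4l2 carry no counting interval.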
